A study of Mus musculus with 4 samples.

Results

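The cardiac sarcomere genes described here are Myl2, Myl3, Myl4, Myl7, Tnnc1, Tnnt2, Tnni1, Tnni3, Actc1 and Myh7, which encode myosin light chains, troponin subunits, an actin and a myosin heavy chain. These 10 genes were chosen by symbol with their difference between the study's groups already known, so their values in that comparison are given as a description, with no test. In the platform annotation 9 of the 10 had a probe, 13 probes in all, on an array with 19057 named genes. Tnnt2, the cardiac troponin T gene, had no probe under its symbol and was not analysed here. Of the 9 genes, 7 were above background on at least 2 of the 4 arrays and entered a fit over 10603 genes.

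The CKO-labelled yolk sacs, of embryonic day 9.5 and strain C57BL/6, are given as carrying a conditional knockout (CKO) of Etv2, in which Flk1Cre recombined loxP sites so that the gene was lost from FLK1+ cells. They were measured on 2 Illumina bead arrays, against 2 arrays of control yolk sacs of the same day and strain. The product of Etv2 is an ETS factor without which blood and vessel cells do not form, and Flk1 is an older name of Kdr, a receptor gene switched on in mesoderm from which blood, vessel and heart muscle cells descend. The sample descriptions call the controls WT and the CKO-labelled samples Mut. Beyond that, the labels do not say whether the controls carried the Cre or the loxP sites. Nor do they say how many embryos went into a sample, or whether samples came from separate litters, so the spread between arrays may be technical.

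On each array 17934 to 18798 of 45281 probes passed as above background. That call means a detection p under 0.05, where the detection p is the share of negative control beads at least as bright as the probe. The Etv2 probe went against the labels, with raw signals of 206 and 227 in the CKO-labelled samples against 157 and 177 in the controls. After normalization the log2 difference was 0.46 ± 0.10 (SE). The probe's position relative to the loxP sites was not tested. The groups are therefore called by their labels throughout. Xist differed by 1.05 ± 0.10 and Eif2s3y, a gene of the Y chromosome, by -0.73 ± 0.11 (log2, SE, n = 2 a group), and the sex make-up of the samples cannot be told apart from the group. Of visceral endoderm marker genes 15 of 15 were above background, and so were 11 of 11 erythroid marker genes. Such detection does not tell whether neighbouring tissue was in the samples.

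The sarcomere is the contractile unit of striated muscle, in which thick filaments of myosin pull on thin filaments of actin when calcium binds the troponin complex. Each myosin heavy chain carries an essential and a regulatory light chain, and the heart uses its own set, with Myl7 and Myl4 in the early heart and later the atria, and Myl2 and Myl3 in the ventricles. The yolk sac has no striated muscle of its own. Its wall consists of an endoderm layer, mesoderm with mesothelium, and blood islands and vessels.

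Sequence upstream of the genes is shown because the CArG box, bound by serum response factor, is a known element of muscle gene promoters and marks a subset of them. RefSeq promoter windows (GRCm38.p6, 250 bases before to 50 after each annotated start) were at hand for all 10 genes, and a CArG box lay in those of 3 of them, Myl3, Myl7 and Actc1, against 1.81% of 27025 genes with a window. Both strands were searched, and no other motif searched overlapped these boxes. The 120 bases before the start are given 5′ to 3′ on the gene's strand, with the box in capitals, for Myl3 (plus strand, chr9:110763558-110763677), Myl7 (minus strand, chr11:5898783-5898902) and Actc1 (minus strand, chr2:114052876-114052995).
Myl3: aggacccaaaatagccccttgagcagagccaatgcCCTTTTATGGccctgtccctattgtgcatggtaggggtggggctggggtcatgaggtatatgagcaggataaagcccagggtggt
Myl7: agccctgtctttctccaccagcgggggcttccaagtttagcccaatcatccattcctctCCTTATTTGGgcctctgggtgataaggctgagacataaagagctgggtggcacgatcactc
Actc1: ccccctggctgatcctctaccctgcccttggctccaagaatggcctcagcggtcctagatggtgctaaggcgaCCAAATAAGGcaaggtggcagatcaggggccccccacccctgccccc
The boxes begin 85, 61 and 47 bases before the start of Myl3, Myl7 and Actc1 in that order. CATTCC, the core of the M-CAT element, lay in the windows of 5 of the 10 genes (Myl3, Myl7, Tnnc1, Tnnt2 and Myh7), against 16.6% of all genes. Of the other motifs searched, CANNTG lay in 9 of 10 genes against 75.0% of all genes, TATAAA in 2 against 15.7%, AGATAA in 2 against 12.7%, and the MEF2 site in 0 against 3.7%. AAGTG lay in 5 of the 10 genes (Myl2, Myl4, Myl7, Tnni1 and Myh7), about the same share as among all 27025 genes with a window. Counted by window rather than by gene, it lay in 46.4% of all 32851 windows. A match of letters is not evidence of binding.

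Of the essential light chain genes, Myl3, the ventricular form, stood at raw signals of 381 and 421 in the CKO-labelled samples against 157 and 182 in the controls. After background correction and normalization its log2 signal was 8.18 ± 0.03 on the CKO-labelled arrays and 6.40 ± 0.16 on the control arrays (SD, n = 2 each). The groups lay far apart, at a log2 difference of 1.78 ± 0.11 (SE, 3.44-fold). Under the reported settings this placed Myl3 at rank 22 of the 10603 genes by increase. On the authors' processed values its difference was 0.73. Myl4, the atrial form, had raw signals of 331 and 349 in the CKO-labelled samples against 184 and 203 in the controls, and a log2 difference of 1.07 ± 0.10 (SE, 2.10-fold). A further Myl4 probe was not above background on any array, with raw signals of 110 and 111 in the CKO-labelled samples against 95.1 and 97.8 in the controls.

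The regulatory light chain genes were detected on the CKO-labelled arrays alone. Myl2, the ventricular form, had raw signals of 177 and 165 in the CKO-labelled samples against 93.2 and 103 in the controls, where its detection p was 0.928 and 0.637. Myl7, the atrial form, had 177 and 164 in the CKO-labelled samples against 105 and 110 in the controls, where its detection p was 0.309 and 0.307. Both genes were thus not well above background in the control yolk sacs, so only a bound can be given for the change. On the normalized group means both were at least 2.03-fold higher on the CKO-labelled arrays, taking for each control array its lowest signal above background. That bound holds under the reported settings only, and the lowest log2 differences over the other settings were 0.33 for Myl2 and 0.27 for Myl7. Their measured log2 means were 6.11 ± 0.39 on the CKO-labelled arrays and 4.40 ± 0.06 on the control arrays for Myl2, and 6.11 ± 0.40 on the CKO-labelled arrays and 4.59 ± 0.01 on the control arrays for Myl7 (SD, n = 2 each). Each had the higher signal on CKO-labelled array 1, by 0.55 for Myl2 and 0.57 for Myl7 on the log2 scale, whereas the other tested members differed between the CKO-labelled arrays by at most 0.20. Over the array, 1.2% of 34885 named probes were above background on both CKO-labelled arrays and on no control array, and 0.462% on both control arrays and on no CKO-labelled array.

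The troponin subunits did not move together. Tnnc1, the calcium-binding troponin C gene of cardiac and slow muscle, had raw signals of 1127 and 1239 in the CKO-labelled samples against 486 and 512 in the controls. Its log2 difference was 1.30 ± 0.09 (SE, 2.46-fold), and the arrays of a group differed by 0.06 (CKO-labelled) and 0.09 (control) on that scale. Tnni1, the slow skeletal troponin I gene that is also the embryonic form of the heart, had raw signals of 221 and 239 in the CKO-labelled samples against 200.3 and 206 in the controls. After normalization its groups overlapped, at log2 signals of 7.02 and 6.94 in the CKO-labelled samples against 6.98 and 6.85 in the controls. The difference of 0.06 ± 0.10 had a 95% interval of -0.17 to 0.30. Tnni3, the troponin I gene that takes over in the heart after birth, was not above background on any array, with raw signals of 118 and 121 in the CKO-labelled samples against 104 and 121 in the controls.

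Actc1, the cardiac alpha-actin gene, was read by 2 probes that were above background on all 4 arrays. The brighter had raw signals of 547 and 560 in the CKO-labelled samples against 318 and 341 in the controls, and the dimmer 178 and 193 in the CKO-labelled samples against 138 and 139 in the controls. Both probes separated the groups, at log2 differences of 0.80 ± 0.11 and 0.68 ± 0.12 (SE). Myh7, the slow and cardiac beta-myosin heavy chain gene, was below background on all 4 arrays with each of its 3 probes, whose raw signals lay between 105 and 121 on the CKO-labelled arrays and between 95.9 and 109 on the control arrays.

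**Figure D1:**
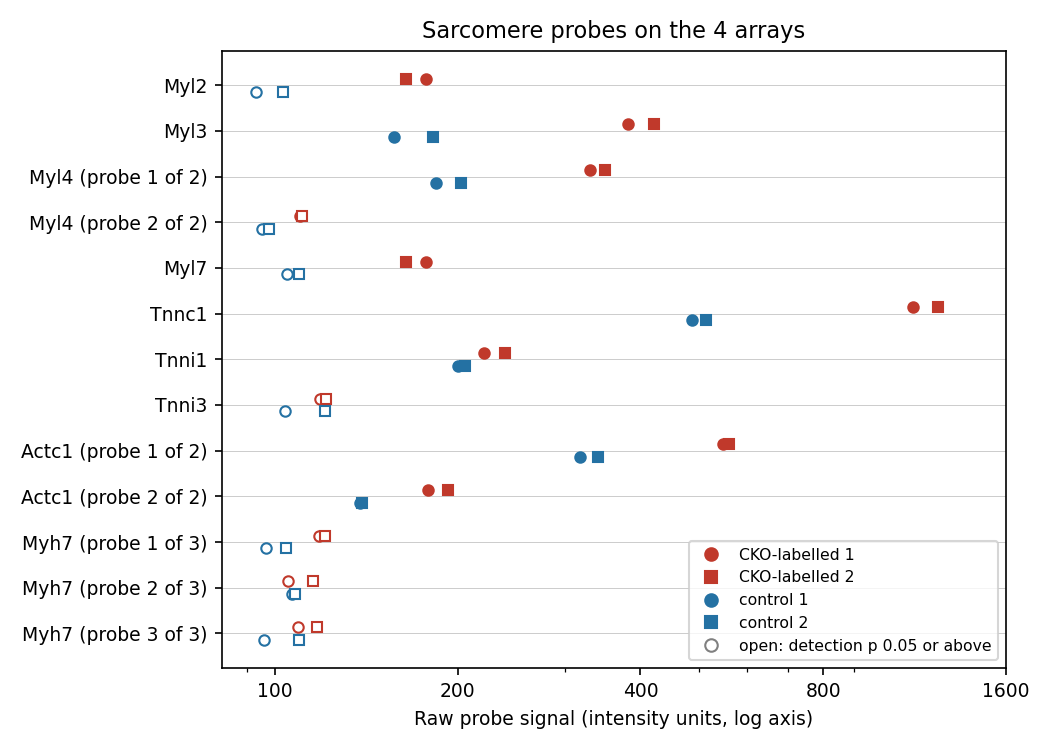
Raw signal (log axis) of each of the 13 sarcomere probes on the 2 CKO-labelled arrays (red) and the 2 control arrays (blue), with open symbols where the detection p was 0.05 or above. Myl2 and Myl7 are filled on the CKO-labelled arrays only, and Tnni3 and the 3 Myh7 probes are open on all 4 arrays.

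Among the 7 tested genes, 6 passed the threshold of the limma fit in the upward direction (adjusted p under 0.05), where 14.4% of all 10603 genes did, and 0 passed in the downward direction by limma, at an unadjusted p under 0.05 as well, where 10.8% of all genes did (25.2% in either direction). The genes were chosen on this contrast, and Myl2 and Myl7 entered the fit only through the CKO-labelled arrays, so nothing is read from that count. For the same 6 genes both CKO-labelled arrays lay above both control arrays, as for 35.7% of all genes, with 29.7% the other way round. The order of the log2 differences was Myl3 (1.78), Tnnc1 (1.30), Myl4 (1.07), Actc1 (0.80) and Tnni1 (0.06), with Myl2 and Myl7 left out of it as bounds. The lowest of the 4 differences between a CKO-labelled and a control array was 1.65 for Myl3, above the highest of Tnnc1, 1.37. That of Tnnc1, 1.23, lay above the highest of Myl4, 1.16, and that of Myl4, 0.98, above the highest of Actc1, 0.91, so that neighbours did not overlap under the settings reported, although the last gaps are small beside the standard errors. The order turned with the treatment of background. Tnnc1 stood above Myl3 without background correction (1.14 against 1.11) and on the authors' processed values (1.005 against 0.73), where Actc1 also stood above Myl4 (0.48 against 0.44). The median over the 7 genes was 1.30, or 1.02 with Myl2 and Myl7 at their bounds and 1.07 over all 9 genes with a probe, beside 0.02 over all 10603 genes. In RNA of whole tissue, a change in the number of cells of a type and a change in RNA per cell cannot be told apart.

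**Figure D2:**
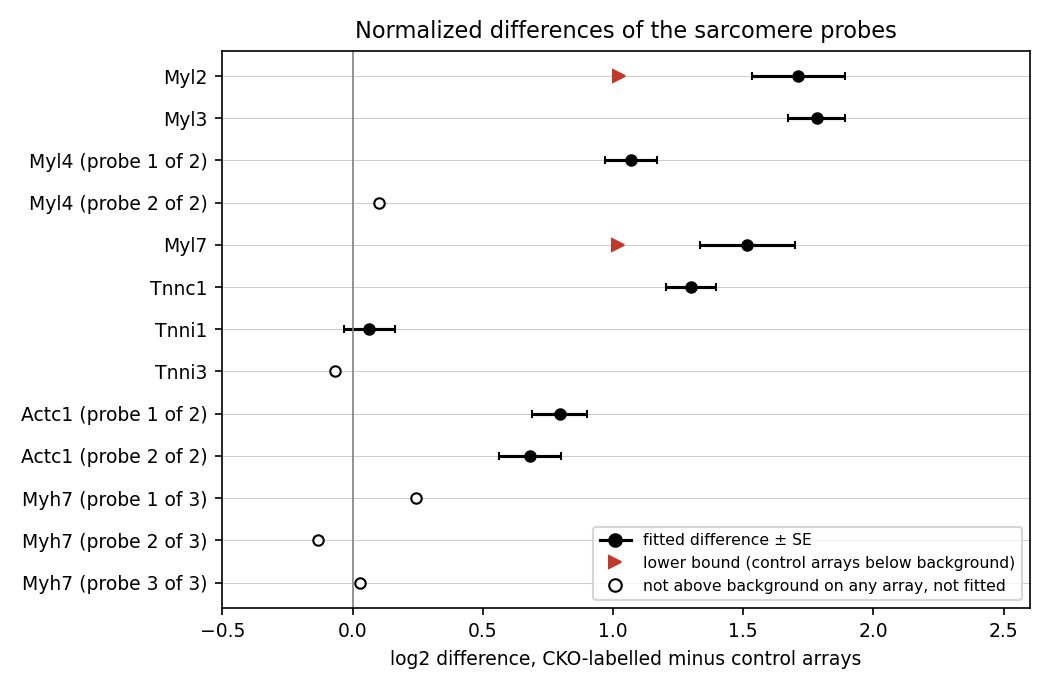
Normalized log2 difference, CKO-labelled minus control arrays, for each sarcomere probe, with bars for the standard error of the fit, red triangles for the lower bounds of Myl2 and Myl7, and open circles for probes not above background on any array. Among probes above background on all 4 arrays, values run from 0.06 for Tnni1 to 1.78 for Myl3, and the bounds stand at 1.02.

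The size of the differences depended on how background was treated, and the differences of the 6 genes were above 0 in every setting that gave a value. On the authors' processed values the difference was 0.73 for Myl3, against 1.78 as reported, 1.005 for Tnnc1, against 1.30 as reported, 0.44 for Myl4, 0.48 for Actc1, 0.33 for Myl2 and 0.27 for Myl7. Tnni1 lay between -0.00 and 0.16 over the 15 other settings.

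**Figure D3:**
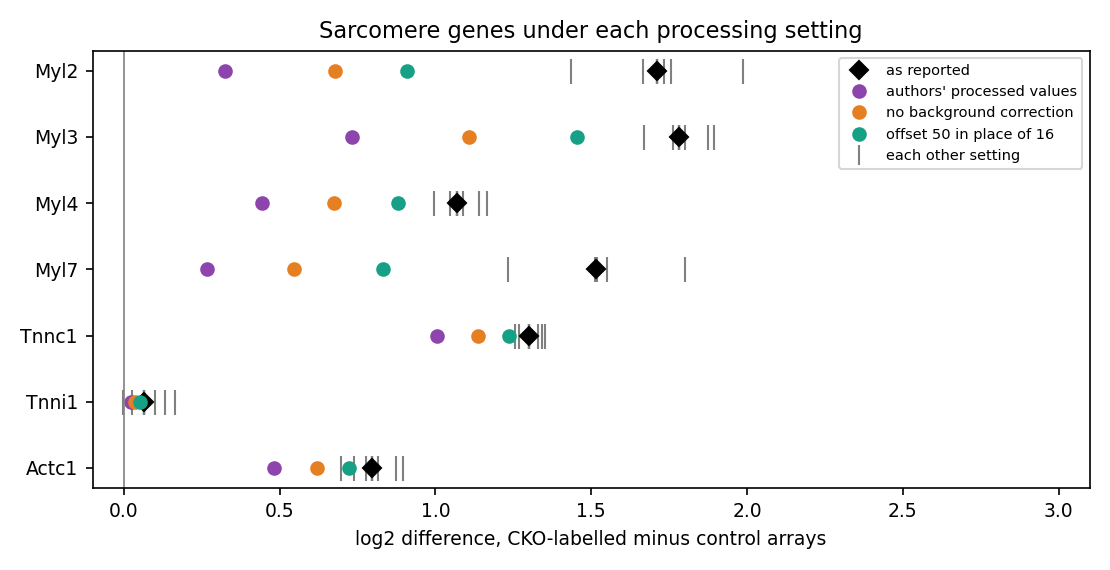
Log2 difference, CKO-labelled minus control arrays, of the 7 tested sarcomere genes as reported (black diamonds) and under the 15 other processing settings. The authors' processed values give the smallest difference for each gene except Tnni1, such as 0.33 for Myl2 and 0.73 for Myl3.

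Of 32 further sarcomere genes listed, 28 were on the array and 13 were tested, of which 5 rose, 2 fell and 6 did not pass (limma, adjusted p under 0.05), where 14.4% of all genes rose and 10.8% fell. Their median log2 difference was 0.21. Myl1, the fast skeletal essential light chain gene that the embryonic heart also uses, was at least 1.87-fold higher on the CKO-labelled arrays under the reported settings. It was below background on both control arrays, and its other 2 probes were not above background. Pdlim3, which encodes a Z-disc protein that binds alpha-actinin, rose by 1.21 ± 0.13 (SE). The skeletal alpha-actin gene Acta1 rose by 0.60 ± 0.16, the intermediate filament gene Des by 0.50 ± 0.11 and the tropomyosin gene Tpm2 by 0.34 ± 0.09. Tmod1, a capping protein gene of thin filaments that also serves the red cell membrane skeleton, fell by 0.71 ± 0.16, while 7 of 11 erythroid marker genes fell too, and the part of that in the Tmod1 value was not tested. Ldb3, a Z-disc gene, was at least 1.24-fold lower, by 1 of 6 probes. Tpm1 at 0.23, Tnni2 at 0.21, Myom1 at 0.07, Tnnt1 at -0.01, Pdlim5 at -0.03 and Tnnt3 at -0.23 did not pass.

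Several of these calls were lost with fewer arrays, at differences of similar size. Tpm2 lost its call without any of the 4 arrays (log2 differences between 0.30 and 0.38), Acta1 without CKO-labelled array 1 (0.72), CKO-labelled array 2 (0.48) or control array 2 (0.40), and Des without the same 3 arrays (0.53, 0.47 and 0.40). Tmod1 lost it without CKO-labelled array 2 (-0.57) or control array 1 (-0.51). The counts of higher genes were 2 without CKO-labelled array 1, CKO-labelled array 2 or control array 2, and 4 without control array 1. On the authors' processed values the calls of Acta1 (0.12) and Ldb3 (-0.11) were lost as well. With no filter on dim probes those of Acta1 and Tpm2 were lost. Tpm2 also lost its call under median scaling and with every probe tested. In each fit without an array the lone array of a group is assumed to vary like the other group.

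Several other structural genes of striated muscle were near or below the detection limit. Mybpc3, Nebl, Nrap, Tcap and Lmod2 were not above background on any array, nor were Mybpc1, Myom2, Myot, Neb and Tnnc2. The cardiac alpha-myosin heavy chain gene Myh6, the alpha-actinin gene Actn2 and the Z-disc genes Csrp3 and Myoz2 were above background on 1 CKO-labelled array and on no control array. The raw signals of those 4 probes lay between 123 and 134 on the CKO-labelled arrays and between 101 and 115 on the control arrays. The median raw signal over all probes was also higher on the CKO-labelled arrays. Ttn, the giant elastic filament gene, was above background with 1 of its 12 probes, on 1 control array.

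Among the transcription factor genes of heart progenitors and muscle, 6 of 14 tested rose, 1 fell and 7 did not pass (limma), where 14.4% of all genes rose and 10.8% fell. Their median log2 difference was 0.24. Gata6, a zinc finger factor gene of endoderm and heart, rose by 0.75 ± 0.09. Isl1, a LIM homeodomain factor gene of the second heart field, was at least 1.52-fold higher under the reported settings, from control arrays below background. The bHLH factor genes Hand2 and Hand1, which are active in heart and extraembryonic mesoderm, rose by 0.85 ± 0.15 and 0.49 ± 0.12. Tbx20 rose by 0.44 ± 0.13, by a probe above background on 1 control array. Its other probes were above background on at most 1 array. Myocd, the coactivator gene of serum response factor, was at least 1.08-fold higher by 1 of 5 probes. Hopx, a homeodomain-only protein gene, fell by 0.44 ± 0.11. Nkx2-5 and Tbx5, which define heart muscle precursors, were not above background on any array, and neither were Gata5, Hey2, Mesp1 and Tbx1. Gata4 at 0.03, Mef2c at 0.21, Tbx2 at 0.26, Smyd1 at 0.04, Mef2d at -0.09, Srf at -0.17 and Tbx3 at -0.18 did not pass. A dimmer Mef2c probe, also above background on all 4 arrays, differed by 0.65. Its raw signals were 198 and 206 in the CKO-labelled samples against 158 and 142 in the controls. Hand2 lost its call without CKO-labelled array 1 (0.73), Hand1 without CKO-labelled array 1 (0.35), control array 1 (0.49) or control array 2 (0.49), and Hopx without CKO-labelled array 1 (-0.49), CKO-labelled array 2 (-0.38) or control array 2 (-0.35). Tbx20 and Myocd lost theirs without any of the 4 arrays, at 0.31 to 0.57 and 0.32 to 0.39. On the authors' processed values Isl1 (0.13), Hand1 (0.17), Tbx20 and Myocd lost theirs, which left 2 higher genes, and Hopx lost its call under median scaling. Tbx20 and Myocd also lost theirs without background correction, with an offset of 50 and with a trended spread. Tbx20 further lost its call with no filter on dim probes and with every probe tested, and Myocd with the mean of its probes. The counts of higher genes were 2 without CKO-labelled array 1, 4 without CKO-labelled array 2 and 3 without either control array.

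Calcium handling, conduction and hormone genes of the heart gave 2 higher, 1 lower and 6 not past the limma threshold among 9 tested, at a median of 0.17, where 25.2% of all genes passed in either direction. Bves, a membrane protein gene of heart and epithelia, rose by 0.84 ± 0.14. Its other probe, above background on 1 array of each group, differed by 0.03. Nppa, the atrial natriuretic peptide gene, was at least 1.08-fold higher, with raw signals of 133 and 137 in the CKO-labelled samples against 107 and 108 in the controls, and without CKO-labelled array 1 its call was lost (0.49), as on the authors' processed values. Atp2a2, the calcium pump gene of the sarcoplasmic reticulum, which other cells use too, fell by 0.40 ± 0.09, and it lost its call without any of the 4 arrays (-0.43 to -0.36) and under median scaling. Pln, Sln, Casq2, Hcn4 and Nppb were not above background on any array. Of 5 tested genes of muscle energy supply, 3 rose and 1 fell (limma), where 14.4% of all genes rose and 10.8% fell. The called genes were the fatty acid binding protein gene Fabp3, at 1.33 ± 0.11, the muscle enolase gene Eno3, at 0.70 ± 0.10, the phosphoglycerate mutase gene Pgam2, at 0.55 ± 0.11, and Cox7a1, at -0.59 ± 0.11. Pgam2 lost its call without CKO-labelled array 1 (0.45) and Cox7a1 without CKO-labelled array 2 (-0.50) or control array 2 (-0.50). The myoglobin gene Mb and the muscle creatine kinase gene Ckm were not above background on any array.

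Other kinds of muscle and the cytoplasmic paralogs of the sarcomere proteins were read from lists of their own. Of 10 smooth muscle genes tested, 1 rose and 0 fell by limma (4 and 0 at an unadjusted p under 0.05), with a median of 0.10. Over all genes tested, 14.4% rose and 10.8% fell by limma. The count of higher smooth muscle genes lay between 0 and 4 over the alternatives, at 4 without background correction, with an offset of 50, on the authors' processed values and with a trended spread. Cnn2, a calponin gene, rose by 0.36 ± 0.09 but lost its call without any of the 4 arrays (0.34 to 0.39). Its dimmer probe, also above background on all 4 arrays, went the other way at -0.24. With the mean of its probes the difference was 0.06 and the call was lost. Of 8 cytoplasmic myosin, actin and tropomyosin genes, Myh10 rose by 0.31 ± 0.09, Tpm3 fell by 0.38 ± 0.11 and 6 did not pass (limma), and both calls were lost without any of the 4 arrays (0.28 to 0.34 for Myh10, -0.48 to -0.28 for Tpm3). Of 11 skeletal muscle marker genes on the array 2 were tested and 0 passed by limma, at an unadjusted p under 0.05 as well. Their regulators Myod1, Myog, Myf5 and Myf6 were not above background on any array.

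**Figure D4:**
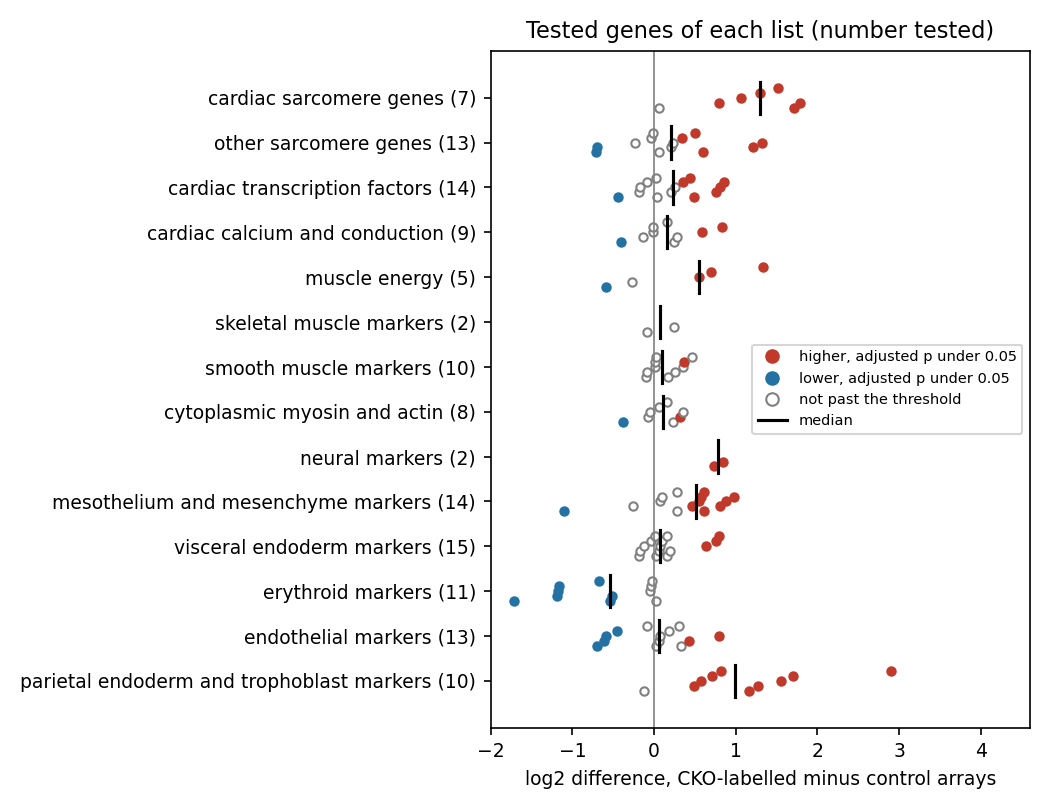
Log2 difference, CKO-labelled minus control arrays, of every tested gene of each list, with the median as a black bar, red and blue for genes past the limma threshold (adjusted p under 0.05) and open circles for the others. The 7 cardiac sarcomere genes have a median of 1.30, other sarcomere genes 0.21 and smooth muscle genes 0.10.

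Markers of other cell types moved beside the sarcomere genes. Over all 10603 genes, 14.4% rose and 10.8% fell by limma. Among markers of parietal endoderm and trophoblast, tissues next to the visceral yolk sac, 9 of 10 rose and 0 fell by limma (0 lower at an unadjusted p under 0.05), led by the proliferin gene Prl2c2 at 2.91 ± 0.11, Plat at 1.70 and Lama1 at 1.55. Their summed normalized signal was 24321 and 25242 in the CKO-labelled samples against 14198 and 14388 in the controls, and Ctsq and Tpbpa of this list were not above background. Among mesothelium and mesenchyme markers 8 of 14 rose and 1 fell (limma), with Col3a1 at 0.98 ± 0.12, Pdgfra at 0.88 ± 0.09, Dcn at 0.81 ± 0.12 and Tcf21 at -1.10 ± 0.17. The summed signal of that list was 27910 and 27806 in the CKO-labelled samples against 19566 and 20332 in the controls, with Msln, Postn and Tbx18 not above background. Without CKO-labelled array 1 the count of higher mesothelium and mesenchyme genes was 5.

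Of 15 neural markers on the array, 12 were not above background on any array, among them Sox1, Sox2, Sox3, Pax6, Neurog1 and Neurod1. The other tested members, Ncam1 and Nes, which mesenchyme and muscle precursors also express, rose by 0.85 ± 0.14 and 0.73 ± 0.12 (limma). Their summed signal was 704 and 819 in the CKO-labelled samples against 450.2 and 409 in the controls. A dimmer Nes probe, also above background on all 4 arrays, differed by only 0.15. Of 10 somite markers on the array 9 were not above background, Tbx6, Meox1, Tcf15 and Pax1 among them, and 0 entered the fit. The part of these tissues in the sarcomere values was not tested. Endothelial markers gave 2 higher and 4 lower of 13 tested (limma), where 14.4% of all genes rose and 10.8% fell. Their higher count was 1 without any 1 of the 4 arrays, and 4 without background correction, with an offset of 50, on the authors' processed values and with a trended spread. Their lower count was 1 without CKO-labelled array 1 or control array 2, and 2 under median scaling. Visceral endoderm markers gave 3 higher and 0 lower of 15 by limma (0 lower at an unadjusted p under 0.05), beside the same shares of all genes. They gave 4 higher and 2 lower on the authors' processed values and with a trended spread. Hand1 is counted both among the transcription factor genes and among the parietal endoderm and trophoblast markers, and Gata6 both among the factor genes and among the visceral endoderm markers.

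The 5 other genes whose centred log2 values over the 4 arrays lay closest to the mean of Myl3, Myl4, Tnnc1, Tnni1 and Actc1, the members above background on all 4 arrays, were Rnf138rt1, Serpina10, Dusp26, Alox12b and Nrarp. Their Euclidean distances from that mean ran from 0.0676 to 0.0733. The mean itself stood at 0.55 and 0.45 in the CKO-labelled samples against -0.50 and -0.50 in the controls. A likeness over 4 arrays in 2 groups is little more than a difference of the same size.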

How the data were processed

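Raw probe intensity values with a detection p-value for each array were deposited by the authors as a non-normalized table, per the file headers. Their processed table, also of intensity, had the same distribution on each array and served as an alternative. The submitters' processing notes name lumi 2.15.1 with no role, and what it was used for is not given in the sources used here. Genes were named from the platform annotation (34885 of 45281 probes with 1 symbol, 18 with several, 10378 unnamed), and 0 symbols changed when looked up in RefSeq (GRCm38.p6).

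Signals were processed with neqc of limma 3.58.1 in R 4.3.3 (background from the detection p, offset 16, quantile normalization, log2). A probe was kept where its detection p was under 0.05 on at least 2 arrays, and each gene was represented by its brightest probe. Groups were compared with lmFit and eBayes, 2-sided, and p-values over the 10603 genes were adjusted by Benjamini-Hochberg (threshold 0.05). The fit was tested on simulated data. The standard error of the dimmer Actc1 probe comes from a fit of every kept probe. The 2 arrays a group limit the precision, and an exact permutation test of 2 against 2 cannot give a 2-sided p below 0.333. The offset pulls the changes of dim genes towards 0. A bound sets the brighter group's mean against the dim group's lowest detected signal (its own measured one if that is higher), averaged over its arrays. It holds for the group mean under the reported settings, not for each array or for other treatments of background. Summed signals add the normalized linear values of a list's tested genes, so the brightest genes of a list weigh most in them.

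The members, lists and tests were chosen with earlier results of these data known. Named genes are the members with every probe, all tested genes of the sarcomere and heart transcription factor lists, from each other list up to 4 called genes that changed most, Etv2, and the 5 genes of most similar values. List genes below background, genes that did not pass, Xist and Eif2s3y were named after their values were seen. The alternatives were the background correction, offset, scaling, filter, choice of probe, spread estimate, replicate block and leaving out each array.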

Additional observations from a re-analysis of the deposited data

How the results depend on the processing

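Of the sarcomere genes, 6 were higher and 0 lower under each of the 15 alternatives, except that only 4 were higher when probes had to be above background on all 4 arrays, which leaves out Myl2 and Myl7. They were chosen on this contrast, so these counts are a description and no sign of stability. Their median log2 difference of 1.30 was 0.67 without background correction, 0.88 with an offset of 50, 0.44 on the authors' processed values, and 1.07 both with no filter on dim probes and with the all-array filter, the last 2 over other sets of genes. The median lay between 1.23 and 1.34 without any 1 array. The order of Myl3, Tnnc1, Myl4, Actc1 and Tnni1 was as reported under 13 of the 15 alternatives, several of which leave these values as they are by construction. The 1527 higher and 1144 lower genes over the whole array became 1535 and 649 under median scaling, so that 70.3% of calls were higher against 57.2% as reported. Leaving out 1 array gave between 751 and 1013 higher and between 545 and 671 lower genes, from fewer arrays.

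The replicate numbers in the titles are not said to mark a shared litter or day, and the differences between arrays I and II correlated at 0.0665 across genes between the groups. With the number as a replicate block the counts were 1561 higher and 1164 lower, and 6 sarcomere genes higher, while Acta1 and Myh10 lost their calls. Of 44 called genes named from other lists, 24 kept their call under every alternative that gave a value, 18 lost it without at least 1 array, and 2, Isl1 and Ldb3, lost it on the authors' processed values. Etv2 lost its call on those values (0.13) and without CKO-labelled array 1 (0.45), CKO-labelled array 2 (0.47) or control array 1 (0.39). A block by slide was not run, as no slide is named in the sources used here.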
